A study of Mus musculus with 20 samples.

Results

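Proteins bound for secretion are folded in the endoplasmic reticulum (ER), and 46 genes of this folding and collagen secretion machinery were followed in mouse kidney cells. They are a list of gene names among the 47729 genes of the count files, and all 46 had enough counts to be tested. By role they are 8 lumenal chaperones and their helpers, 4 J-domain co-chaperones, 4 protein disulfide isomerases, 6 stress sensors and transcription factors, 8 genes of ER-associated degradation, 9 genes of collagen folding and modification, and 7 genes of the translocon, of COPII export and of retrieval to the ER.

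New secretory proteins enter the ER through the Sec61 channel, are folded by chaperones and disulfide isomerases, and leave in vesicles with a COPII coat, while proteins that fail to fold are sent back to the cytosol and degraded. Procollagen is a difficult client, because its chains need hydroxylated prolines, a dedicated chaperone (HSP47, encoded by Serpinh1) and carriers large enough for a rigid triple helix. When unfolded proteins build up, the membrane sensors IRE1, PERK and ATF6 start the unfolded protein response, which raises chaperone genes through short promoter motifs, and in the kidney the main makers of fibrillar collagen are fibroblasts of the interstitium.

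The libraries come from kidney cells that were sorted with magnetic beads for the surface marker Sca-1 and labelled as mesenchymal stem cell-like. Roxadustat, a drug against anemia, inhibits the prolyl hydroxylases that mark hypoxia-inducible factors for destruction. The series asks how renal cells that can make erythropoietin respond to it. At day 0 the cells were freshly isolated from control mice or from mice given intraperitoneal roxadustat at 33 mg/kg for 7 days (2 libraries each). At day 7 and day 21 they had been kept in culture at 20% oxygen in a medium for mesenchymal stem cells, as control or as roxadustat cells (4 libraries each at each time). The series text speaks of a culture complemented with roxadustat. Whether those cultures began with cells of injected mice is not stated in the labels, which give no strain, sex or age. Nor is it stated that replicates are separate mice or cultures, so p-values measure the spread between these libraries, which may be technical. That spread was estimated for each gene from all 20 libraries together. A day 0 p-value thus also rests on the spread of the cultured libraries.

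Libraries held 8502011 to 19903160 counts, and the 46 genes took 0.677% to 0.939% of them at day 0 and 0.995% to 1.57% in culture. Levels are counts-per-million values (CPM), scaled by TMM, which sets libraries against each other by the bulk of their genes. A gene was called when the quasi-likelihood F test of edgeR gave a Benjamini-Hochberg adjusted p under 0.05 over 18731 tested genes, and rose or fell refers only to such calls. The labelled cell type was checked by marker genes. At day 0 tubule markers were high in both groups (proximal tubule markers 17590 to 18510 CPM, summed over 6 genes), far above the 10 mesenchymal and fibroblast markers (747 to 812 CPM in control and 1275 to 1667 CPM in roxadustat libraries). In culture, mesenchymal markers summed to 10340 to 10510 CPM in control and 6781 to 7450 CPM in roxadustat libraries at day 7, and to 31150 to 36940 CPM against 4589 to 5805 CPM at day 21. The 7 epithelial markers ran the other way at day 21, at 14 to 16.6 CPM in control and 387 to 393 CPM in roxadustat libraries. Macrophage markers (6 genes) were at 306 to 312 CPM in control and 14.01 to 15.7 CPM in roxadustat libraries at day 7. The groups thus differ in cell markers wherever they are compared. In bulk RNA fewer cells of a type and less RNA per cell cannot be told apart.

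The promoters are shown first, since many genes of this machinery carry known motifs of the unfolded protein response. RefSeq promoter windows (build GRCm38.p6, 250 bases before to 50 after the gene start) were found for 38 of the 46 genes, 41 windows in all. Atf6, Creb3l1, Derl1, Fkbp10, Hyou1, Kdelr2, Manf and Sec61a1 had no entry. The ER stress response element ERSE (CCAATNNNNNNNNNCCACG), the motif of ATF6 together with NF-Y, was searched on both strands. It was present in 9 genes, 22% of the member windows against 0.119% of 32851 windows of the same length. ERSE-II (ATTGGNCCACG) was in 2 genes, 4.88% of member windows against 0.0365% of all. The unfolded protein response element UPRE (TGACGTGG), bound by XBP1, was in 3 genes, 7.32% against 0.676%. Member windows were richer in G and C than all windows, with medians of 62.3% and 52.7%. The list was drawn up as unfolded protein response, chaperone and export genes, many with known motifs, so these shares describe the list and test nothing.

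The sites are printed along the strand of each gene with 8 bases on either side and the motif in capitals, so a match on the opposite strand reads as the reverse complement. The first are ERSE sites of chaperones and of an isomerase.
Hspa5 (chr2:34772017-34772051, plus strand): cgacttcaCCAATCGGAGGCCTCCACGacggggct
Hsp90b1, first site (chr10:86705630-86705664, minus strand): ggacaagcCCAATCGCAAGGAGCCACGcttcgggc
Hsp90b1, second site (chr10:86705525-86705559, minus strand): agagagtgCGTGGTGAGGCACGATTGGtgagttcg
Calr (chr8:84847067-84847101, minus strand): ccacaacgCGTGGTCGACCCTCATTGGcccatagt
Pdia6 (chr12:17266483-17266517, plus strand): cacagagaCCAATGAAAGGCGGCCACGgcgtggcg
The others with an ERSE are Canx, Creld2, Dnajc3, Derl3 and Syvn1. The next lines are the ERSE-II sites.
Herpud1 (chr8:94386369-94386395, plus strand): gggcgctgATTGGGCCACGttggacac
Dnajb11 (chr16:22857844-22857870, plus strand): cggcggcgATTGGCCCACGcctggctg
The UPRE sites all belong to genes of export from the ER or of retrieval to it.
Sec24d (chr3:123267462-123267485, plus strand): cgggcgccTGACGTGGcactagca
Sec23a (chr12:59011996-59012019, minus strand): ctccccttTGACGTGGcagaggcg
Kdelr3 (chr15:79516370-79516393, plus strand): ccgccccgCCACGTCAccgcgcgg

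Whole windows follow for 4 genes that the results below turn on. Hspa5 carries an ERSE and Sec24d a UPRE, in capitals. Serpinh1 and Rcn3, genes of collagen folding with large differences, hold no ERSE, ERSE-II or UPRE in the window.
Hspa5 (chr2:34771840-34772139, plus strand): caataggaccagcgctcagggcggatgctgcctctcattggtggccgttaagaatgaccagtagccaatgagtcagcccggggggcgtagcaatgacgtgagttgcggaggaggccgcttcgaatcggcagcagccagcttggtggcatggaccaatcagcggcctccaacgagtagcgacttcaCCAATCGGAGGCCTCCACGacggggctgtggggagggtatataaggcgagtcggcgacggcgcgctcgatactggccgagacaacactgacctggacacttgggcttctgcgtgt
Sec24d (chr3:123267246-123267545, plus strand): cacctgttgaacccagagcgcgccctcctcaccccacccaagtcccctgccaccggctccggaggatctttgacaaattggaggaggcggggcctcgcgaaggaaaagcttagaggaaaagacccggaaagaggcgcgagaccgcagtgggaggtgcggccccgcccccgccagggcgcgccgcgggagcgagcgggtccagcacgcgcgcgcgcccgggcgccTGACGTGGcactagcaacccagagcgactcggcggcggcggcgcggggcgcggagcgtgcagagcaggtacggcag
Serpinh1 (chr7:99353190-99353489, minus strand): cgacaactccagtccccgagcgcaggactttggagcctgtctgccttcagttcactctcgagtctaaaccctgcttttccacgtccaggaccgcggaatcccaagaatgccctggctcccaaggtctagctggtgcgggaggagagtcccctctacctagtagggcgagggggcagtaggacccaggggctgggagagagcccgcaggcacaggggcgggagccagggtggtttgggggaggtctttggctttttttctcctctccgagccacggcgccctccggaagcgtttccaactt
Rcn3 (chr7:45092164-45092463, minus strand): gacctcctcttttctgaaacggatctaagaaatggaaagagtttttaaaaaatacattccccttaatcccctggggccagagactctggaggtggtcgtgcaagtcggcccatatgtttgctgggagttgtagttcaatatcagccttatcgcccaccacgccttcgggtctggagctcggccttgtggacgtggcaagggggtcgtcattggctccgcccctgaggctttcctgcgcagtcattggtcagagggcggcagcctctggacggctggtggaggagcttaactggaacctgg
The core of the hypoxia response element (ACGTG), which overlaps the UPRE, was in 19 member windows, 46.3% against 19.6% of all windows, and in 16 genes at least 1 core shared no base with the other motifs. Each of the 4 windows printed in full holds a core, left in small letters in Hspa5, Serpinh1 and Rcn3. In Sec24d the core lies within the UPRE. The share of windows with the core was not tested, and the member windows are richer in G and C (medians of 62.3% and 52.7%). A match describes letters in a window and shows no binding.

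**Figure D1:**
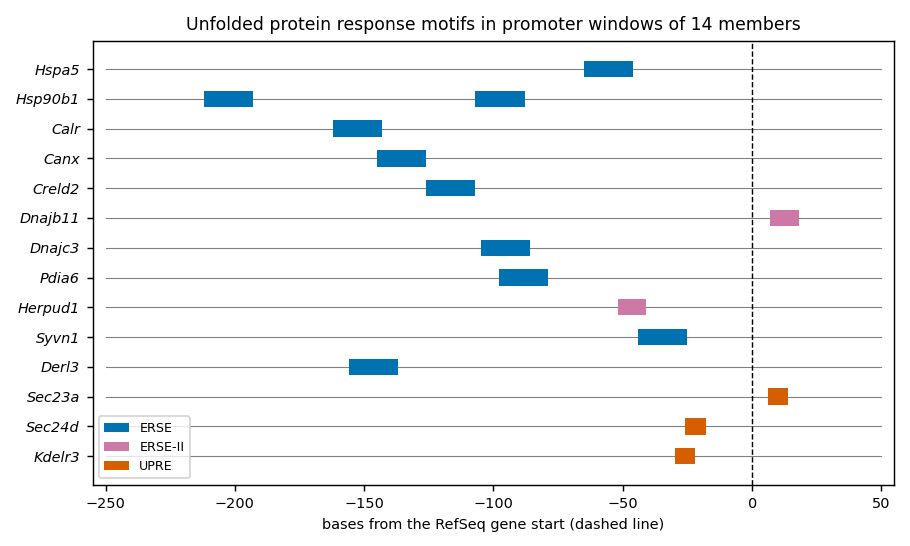
Positions of unfolded protein response motifs in the promoter windows of 14 members. The horizontal axis gives bases from the RefSeq gene start (dashed line), and bars mark ERSE (9 genes, 2 sites in Hsp90b1), ERSE-II (2 genes) and UPRE (3 genes).

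At day 0, 11 of the 46 genes were higher in cells of roxadustat-injected mice and none was lower. Of all tested genes 2.73% were called higher and 4.11% lower. At day 7 in culture the picture had turned, with 7 members higher and 25 lower in roxadustat cells (24.1% and 23.6% of all genes). At day 21 it was 6 higher and 31 lower (30.0% and 32.9% of all genes), and 12 members were at least 2-fold lower, a fall seen in 12.6% of all genes. The median log2 fold change of the members was 0.16 at day 0, -0.21 at day 7 and -0.45 at day 21, against -0.01, 0.03 and 0.00 over all tested genes. Scaling by library size alone moved the median of all genes by 0.34 at day 21 and split the member calls into 11 higher and 22 lower there, against 9372 and 3549 of all genes tested, with 4 members at least 2-fold lower. It also turned all-gene calls at day 0 from 511 higher and 769 lower into 699 and 524, with 13 members higher and none lower. At day 7 this scaling called 28.6% of all genes higher and 19.5% lower, the background for the day 7 counts by library size alone below.

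**Figure D2:**
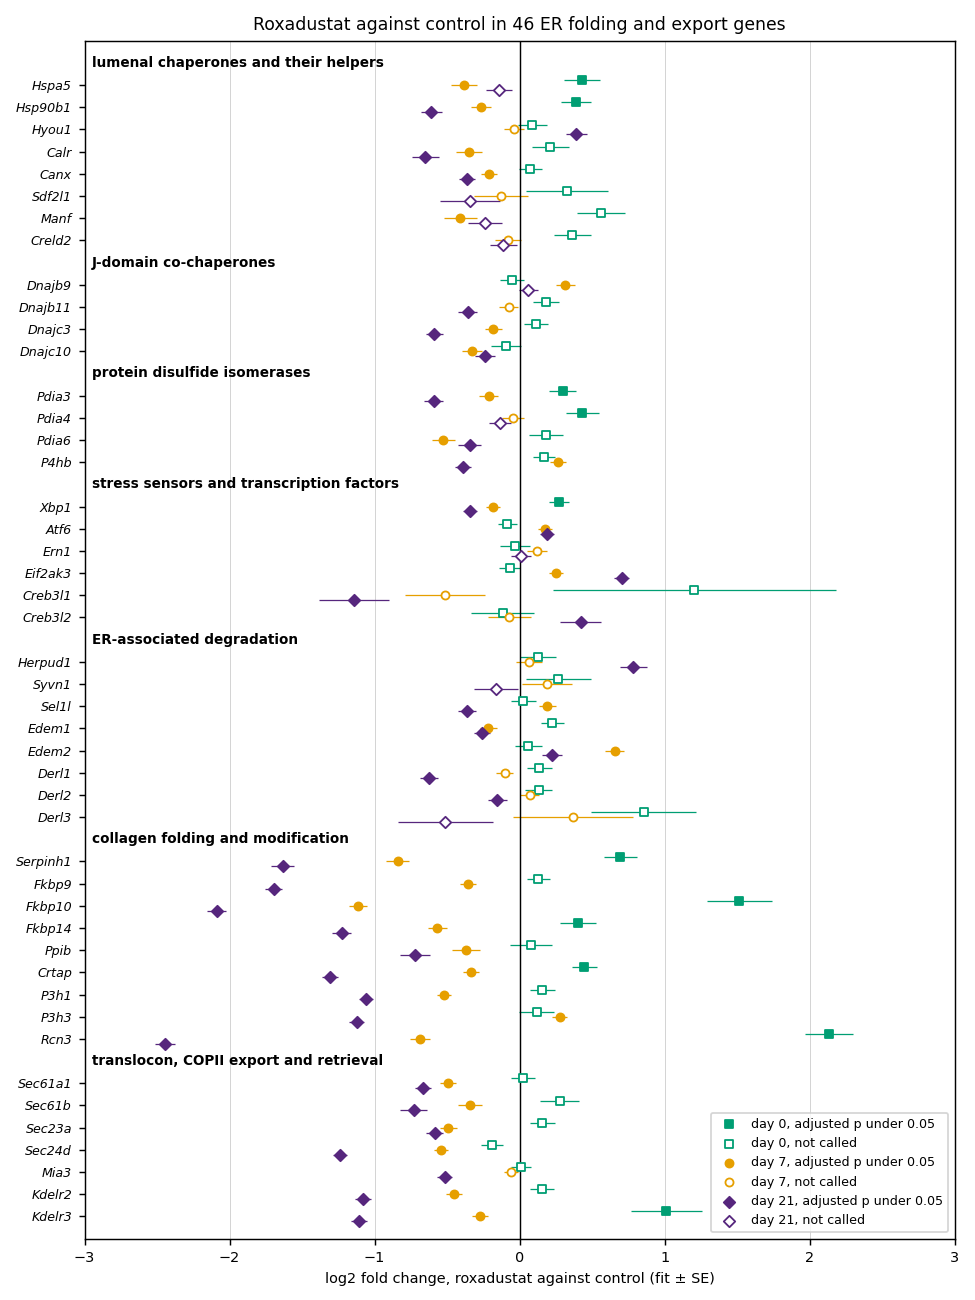
Fitted log2 fold changes of roxadustat against control libraries for the 46 genes, grouped by role, with the SE of the fit as bars. Squares are day 0, circles day 7 and diamonds day 21, filled where the adjusted p is under 0.05. The 9 collagen folding genes lie to the left of 0 at day 21 and 8 of them do so at day 7.

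Collagen folding and modification held the 4 largest falls among the members at day 21, those of Rcn3, Fkbp10, Fkbp9 and Serpinh1. Of its 9 genes 5 rose at day 0, 8 fell and 1 rose at day 7, and all 9 fell at day 21, 8 of them at least 2-fold, with a median log2 fold change of -1.31. The numbers called in each direction at day 7 and day 21 were the same when libraries were scaled by DESeq2's size factors or by library size alone, but by library size alone 4 rather than 8 were at least 2-fold lower at day 21. Serpinh1 (chromosome 7, 99345376 to 99353239 on GRCm38, no exon base shared with another gene) was at 157 and 123 CPM in control and 197 and 256 CPM in roxadustat libraries at day 0. At day 7 it stood at 2306, 2314, 2316 and 2306 CPM in control and at 1358, 1275, 1342 and 1181 CPM in roxadustat cells. At day 21 the values were 2430, 2383, 2084 and 2048 CPM against 675, 781, 703 and 722 CPM. Roxadustat libraries were thus above control at day 0 and below it in culture, with no overlap at any time. The fitted log2 fold changes were 0.69 ± 0.12 (SE), -0.84 ± 0.08 and -1.64 ± 0.08, with edgeR adjusted p of 2.39e-04, 8.88e-10 and 3.23e-16.

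Rcn3, an ER calcium-binding protein of the reticulocalbin family (chromosome 7, 45082913 to 45092221), turned further. It was at 3.12 and 3.29 CPM in control and 11.5 and 16.8 CPM in roxadustat libraries at day 0, a 4.39-fold rise (edgeR adjusted p = 2.38e-09). At day 7 the values were 205, 217, 226 and 215 CPM in control and 140.3, 131, 141 and 124 CPM in roxadustat cells, 1.61-fold lower. The day 21 values were 434, 419, 376 and 387 CPM in control and 79.2, 70.3, 69.8 and 77.0 CPM in roxadustat cells, 5.45-fold lower (edgeR adjusted p = 1.60e-21). No other member was lower by as large a fold at day 21. Gm45669 shares 16.9% of its exon bases, and on unstranded libraries reads of overlapping genes cannot be assigned to one of them.

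Fkbp10, the prolyl isomerase FKBP65 that works on procollagen (chromosome 11, 100415697 to 100424824), had few counts at day 0, 23 and 21 in control and 48 and 68 in roxadustat libraries. These were 1.49 and 1.38 CPM against 3.18 and 5.17 CPM, a 2.86-fold rise (edgeR adjusted p = 5.88e-05). At day 7 it was at 301, 292, 305 and 301 CPM in control and 134, 128, 154 and 137 CPM in roxadustat cells, 2.17-fold lower (adjusted p = 1.82e-14), the one member past 2-fold at that time. At day 21 control libraries were at 343, 346, 342 and 331 CPM and roxadustat libraries at 78.9, 73.3, 83.5 and 84.5 CPM. That is a 4.25-fold fall. The groups did not overlap at any of the times.

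The other FK506-binding isomerases were also lower in culture. Fkbp9 fell 1.28-fold at day 7 and 3.24-fold at day 21, when it was at 604 to 697 CPM in control and 187 to 209 CPM in roxadustat cells, and at day 0 it was not called (104 and 106 against 116 and 114 CPM). Fkbp14 was at 10.8 and 9.87 CPM in control and 13.6 and 13.8 CPM in roxadustat libraries at day 0, 1.32-fold higher. It was at 84.9, 96, 95.8 and 92 CPM against 65.9, 63, 63.7 and 56.4 CPM at day 7, 1.48-fold lower, and at 129, 114, 111 and 106 CPM against 45.9, 51.4, 51 and 48.3 CPM at day 21, 2.34-fold lower. Its groups did not overlap at any time. Crtap, P3h1 and Ppib form the complex that hydroxylates a single proline of the fibrillar chains at the 3-position and isomerizes prolines. Crtap, its scaffold, was at 23.9 and 27.97 CPM against 34.2 and 36.5 CPM at day 0, 1.36-fold higher in roxadustat libraries (edgeR adjusted p = 0.00111). In culture its order was reversed. It was at 73.9, 78.3, 79.5 and 74 CPM in control and 58.9, 59.95, 63.9 and 59.2 CPM in roxadustat cells at day 7, 1.26-fold lower, and at 140.3, 131, 137 and 134 CPM against 54.3, 51.9, 54.8 and 57.9 CPM at day 21, 2.48-fold lower. P3h1, the hydroxylase, was 1.44-fold lower at day 7 and 2.09-fold lower at day 21. Ppib, the isomerase cyclophilin B, fell by 0.37 at day 7 and by 0.72 at day 21 on the log2 scale, the smallest fall of the 9 at day 21. Its libraries overlapped at day 7, when control replicate 1 was at 78.9 CPM and the other control libraries at 106 to 109 CPM, and it shares 25% of its exon bases with Snx22.

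P3h3, a prolyl 3-hydroxylase family member that works with the lysine hydroxylation machinery, was the exception at day 7. It was at 53.7, 57.1, 57.5 and 56.0 CPM in control and 67.7, 67.5, 73.6 and 63.0 CPM in roxadustat cells, a rise of 0.28 ± 0.05 on the log2 scale (edgeR adjusted p = 7.92e-05). At day 21 control cells had reached 143, 140, 144 and 141 CPM, while roxadustat cells stayed at 63.4, 65.4, 65.2 and 66.8 CPM, 2.18-fold lower (adjusted p = 6.84e-17). Between day 7 and day 21 P3h3 rose 2.53-fold in control cells and was not called in roxadustat cells (log2 fold change -0.06, adjusted p = 0.349).

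**Figure D3:**
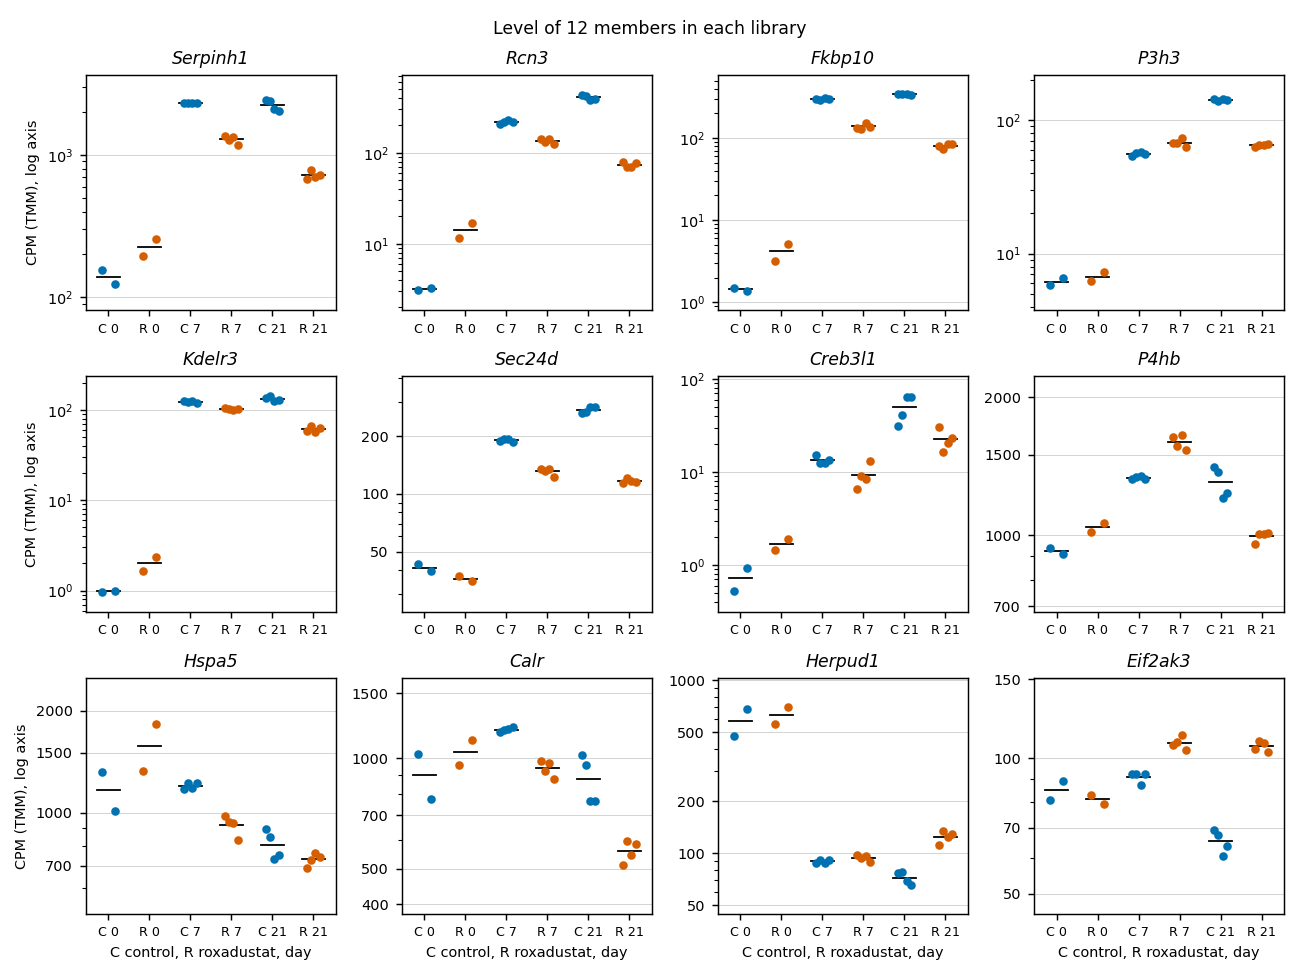
CPM of 12 members in each library on log axes, with horizontal bars at the group means. Each point is 1 library of control (C, blue) or roxadustat (R, orange) cells at day 0, 7 or 21. Serpinh1, Rcn3 and Fkbp10 lie higher in roxadustat than in control libraries at day 0 and lower at day 7 and day 21, while Eif2ak3 lies higher in roxadustat libraries at day 7 and day 21.

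The genes that carry proteins into and out of the ER were also mostly lower in culture. Of 7 genes 1 was higher at day 0, 6 were lower at day 7 and all 7 were lower at day 21, with a median log2 fold change of -0.73 at day 21. The counts at day 7 and day 21 were the same by library size alone. Sec24d, the cargo-selecting COPII subunit needed for procollagen export (chromosome 3, 123267455 to 123365641), was at 42.9 and 39.5 CPM in control and 37.2 and 35.1 CPM in roxadustat libraries at day 0, which was not called (adjusted p = 0.147). At day 7 it was at 190, 194, 193 and 186 CPM against 135, 131, 135 and 122 CPM. The day 21 values were 264, 269, 284 and 284 CPM against 114, 120, 117 and 115 CPM, 2.36-fold lower in roxadustat cells (edgeR adjusted p = 8.41e-19). Roxadustat libraries were below control libraries at all 3 times, with no overlap.

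Its partner in the coat, Sec23a, fell 1.41-fold at day 7 and 1.5-fold at day 21. Mia3 encodes TANGO1, the ER exit site protein that loads procollagen. It was at 130 to 136 CPM in control and 121 to 134 CPM in roxadustat cells at day 7, overlapping and not called, and at 154 to 168 CPM against 108 to 117 CPM at day 21, 1.43-fold lower (edgeR adjusted p = 6.46e-10). Kdelr3 encodes a receptor that returns escaped chaperones to the ER. It was at 0.974 and 0.987 CPM in control and 1.66 and 2.36 CPM in roxadustat libraries at day 0, 15 to 31 counts a library, and was called 2.02-fold higher (adjusted p = 0.0277). In culture it was lower, at 126, 122, 125 and 118 CPM in control and 105, 101, 99.8 and 101 CPM in roxadustat cells at day 7 (1.21-fold) and at 136, 140.5, 124 and 127 CPM against 58.2, 65.8, 56.9 and 62.6 CPM at day 21 (2.16-fold). Kdelr2, its paralog, fell 1.37-fold and 2.11-fold at day 7 and day 21. Of the channel subunits, Sec61a1 fell 1.41-fold and 1.59-fold and Sec61b 1.27-fold and 1.66-fold at these times.

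Among the 8 lumenal chaperones and helpers 2 were higher at day 0, 5 were lower at day 7, and 3 were lower and 1 higher at day 21 (2 and 2 by library size alone). Hspa5 encodes BiP, the main ER chaperone and the usual readout of the unfolded protein response (chromosome 2, 34771970 to 34777547). It was at 1323 and 1015 CPM in control and 1325 and 1825 CPM in roxadustat libraries at day 0, so the lower roxadustat library stood level with the higher control library. It was called 1.35-fold higher (edgeR adjusted p = 0.0369), a call lost when control replicate 2 (0.24 on the log2 scale, adjusted p = 0.392) or roxadustat replicate 2 (0.18, adjusted p = 0.566) was left out. At day 7 Hspa5 was at 1178, 1227, 1180 and 1223 CPM in control and 977, 939.8, 936 and 830.3 CPM in roxadustat cells, 1.31-fold lower (adjusted p = 7.92e-04). At day 21 the ranges were 731 to 894 CPM and 690 to 764 CPM, which overlapped, and it was not called (log2 fold change -0.14 ± 0.09, adjusted p = 0.17). With no filter on low counts it was called lower (-0.17, adjusted p = 0.0291).

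Hsp90b1, the ER paralog of HSP90, was at 655 and 504 CPM in control and 689.9 and 827 CPM in roxadustat libraries at day 0, 1.31-fold higher. It was at 864, 864, 865 and 876 CPM against 743, 724, 732 and 683 CPM at day 7, 1.20-fold lower, and at 800.3, 747, 636 and 695 CPM against 482, 458, 458 and 486 CPM at day 21, 1.53-fold lower. The groups did not overlap at any time. The lectin chaperones that hold glycoproteins moved the same way in culture. Calr, calreticulin, was at 1022, 960, 764 and 765 CPM in control and 513, 595, 545 and 585 CPM in roxadustat cells at day 21, 1.57-fold lower (edgeR adjusted p = 1.40e-06). Canx, calnexin, fell 1.16-fold at day 7 and 1.29-fold at day 21, where by library size alone it was not called (adjusted p = 0.844). Manf, a secreted stress-response factor, was at 138, 141, 144 and 143 CPM in control and 109, 110.5, 105 and 103 CPM in roxadustat cells at day 7, 1.33-fold lower. Hyou1, a nucleotide exchange factor for BiP, was the exception at day 21, at 182 to 203 CPM in control and 236 to 274 CPM in roxadustat cells, 1.31-fold higher (adjusted p = 4.11e-05). Sdf2l1 and Creld2 were called at none of the 3 times. At day 0 Manf (adjusted p = 0.0519) and Creld2 (0.0911) were not called.

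Of the J-domain proteins, which stimulate BiP, none was called at day 0, 1 rose and 2 fell at day 7, and 3 fell at day 21, while by library size alone 1 was lower and 1 higher at each of these times. Dnajb9, a target of IRE1 signalling, was at 20.7, 22.1, 20.3 and 23.2 CPM in control and 26.7, 26.3, 27.5 and 26.9 CPM in roxadustat cells at day 7, 1.24-fold higher (edgeR adjusted p = 1.98e-04), and at day 21 it was not called. Dnajc3 fell 1.5-fold at day 21, at 321, 317, 280 and 289 CPM against 189.6, 219, 200.5 and 194 CPM. Dnajc10, a reductase for misfolded proteins, fell 1.26-fold at day 7, at 334, 342, 343 and 346 CPM against 289, 284, 262 and 252 CPM, and 1.18-fold at day 21. Dnajb11 was 1.28-fold lower at day 21. Scaled by library size alone, the day 21 difference was 0.11 for Dnajc10 and -0.01 for Dnajb11 on the log2 scale, and neither was called.

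Of the 4 disulfide isomerases 2 rose at day 0, 1 rose and 2 fell at day 7, and 3 fell at day 21 (1 lower and 1 higher by library size alone at day 7 and at day 21). P4hb is both an isomerase and the beta subunit of collagen prolyl 4-hydroxylase (chromosome 11, 120560298 to 120573253). It was at 1326, 1341, 1345 and 1327 CPM in control and 1642, 1569, 1659 and 1531 CPM in roxadustat cells at day 7, 1.20-fold higher (edgeR adjusted p = 1.97e-04). At day 21 it was at 1409, 1371, 1207 and 1238 CPM against 958, 1007, 1006 and 1011 CPM, 1.31-fold lower (adjusted p = 3.65e-07). The groups did not overlap at either time and their order was reversed, but by library size alone P4hb was not called at day 21 (-0.04, adjusted p = 0.525). Pdia6 fell 1.44-fold at day 7, at 426, 425, 426 and 431 CPM against 311, 298, 296 and 281 CPM, and 1.27-fold at day 21 (0.002 on the log2 scale by library size alone). Pdia3, which works with calreticulin and calnexin, rose 1.23-fold at day 0, from 439 and 338 CPM in control to 440.4 and 514 CPM in roxadustat libraries. It fell 1.16-fold at day 7, at 650.5, 675, 674 and 696 CPM against 608, 576, 577 and 562 CPM, and 1.51-fold at day 21, at 773, 738, 777 and 806 CPM against 525, 542, 494 and 489 CPM. No groups of Pdia3 overlapped, although the closest libraries at day 0 were nearly level. Pdia4 was 1.35-fold higher at day 0 and not called in culture.

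The sensors and transcription factors were split, with 2 higher and 1 lower at day 7 and 3 higher and 2 lower at day 21 (3 and 0, and 4 and 1, by library size alone). Eif2ak3 encodes PERK, the kinase that slows translation under ER stress (chromosome 6, 70844515 to 70905245). It was at 80.9 and 89.0 CPM against 83.0 and 79.0 CPM at day 0, not called. At day 7 it was at 92.3, 92.2, 87.2 and 92.3 CPM in control and 107, 109, 112 and 105 CPM in roxadustat cells, 1.19-fold higher (edgeR adjusted p = 1.58e-04). At day 21 control cells were at 69.4, 67.4, 60.5 and 63.9 CPM and roxadustat cells at 105, 109, 108 and 103 CPM, 1.63-fold higher (adjusted p = 1.86e-12). The levels in roxadustat cells were close at both times, while those of control cells were lower at day 21. Atf6 was 1.13-fold and 1.14-fold higher at day 7 and day 21, and Ern1, which encodes IRE1, was called at none of the times.

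Xbp1, the transcription factor whose mRNA is spliced by IRE1, was at 204 and 220 CPM against 253 and 260 CPM at day 0, 1.21-fold higher (edgeR adjusted p = 0.0125), and was lower in culture. It was at 162, 163, 164 and 161 CPM against 148, 147, 143 and 135 CPM at day 7 (1.13-fold) and at 158, 159.7, 144 and 144 CPM against 119, 116, 124 and 119.8 CPM at day 21 (1.27-fold, but 0.007 on the log2 scale by library size alone). Gene counts do not tell its spliced from its unspliced form. Creb3l1, a membrane-bound factor that drives collagen genes in bone (chromosome 2, 91982328 to 92024502), was at 31.5, 40.6, 64.4 and 64.5 CPM in control and 30.5, 16.5, 20.5 and 23.0 CPM in roxadustat cells at day 21. It was 2.21-fold lower (edgeR adjusted p = 6.55e-04). The control libraries fall into 2 pairs, and the highest roxadustat library was just below the lowest control library. Creb3l2, its paralog, was called 1.34-fold higher at day 21 (adjusted p = 0.0157), with overlapping libraries at 90.5 to 144 CPM and 137 to 183 CPM. That call was lost without control replicate 1 or 2 (adjusted p = 0.0546 each) and without roxadustat replicate 1 (0.0568).

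In ER-associated degradation 2 genes rose and 1 fell at day 7, and 2 rose and 4 fell at day 21 (3 and 1 by library size alone), with none called at day 0. Herpud1, which gathers the ubiquitin ligase complex at the ER membrane (chromosome 8, 94386438 to 94395377), was at 87.8 to 91.9 CPM in control and 88.7 to 97.1 CPM in roxadustat cells at day 7. At day 21 it was at 76.9, 77.6, 69.2 and 65.5 CPM in control and 111, 134, 125 and 129 CPM in roxadustat cells, 1.72-fold higher (edgeR adjusted p = 1.57e-07). Edem2, the mannosidase that starts glycan trimming, was at 28.3, 31.8, 29.7 and 29.4 CPM in control and 46.7, 45.3, 48.3 and 47.6 CPM in roxadustat cells at day 7, 1.57-fold higher (adjusted p = 2.95e-09). At day 21 the difference was 1.17-fold. Every roxadustat library was above every control library for Herpud1 at day 21 and for Edem2 at day 7. Derl1, a channel-forming derlin, was 1.54-fold lower at day 21, at 98.2, 118, 112 and 108 CPM against 177, 175, 158 and 164 CPM in control. Sel1l, the adaptor of the ligase, was 1.14-fold higher at day 7 (238, 233, 258 and 249 CPM against 219.7, 215, 208 and 214 CPM in control). At day 21 it was 1.29-fold lower (250.2, 258, 252 and 252 CPM against 331, 312, 324 and 335 CPM). Edem1 fell 1.16-fold and 1.20-fold. Neither Sel1l (-0.01 on the log2 scale) nor Edem1 (0.09) was called at day 21 by library size alone. Derl2 was called 1.11-fold lower at day 21 (edgeR adjusted p = 0.0431) with overlapping libraries, and by library size alone it was called higher (log2 fold change 0.19, adjusted p = 0.0156). The ligase Syvn1 was not called between roxadustat and control at any time, nor was Derl3, with 3 to 38 counts a library.

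The 9 genes with an ERSE had median log2 fold changes of 0.27 at day 0, -0.21 at day 7 and -0.36 at day 21, and 2 of them were called at day 0 (higher), 6 at day 7 (lower) and 5 at day 21 (lower). The ERSE-II genes diverged at day 21, when Herpud1 rose and Dnajb11 fell. The 3 genes with a UPRE were lower at day 7 and at day 21, with a median of -1.11 at day 21. The 24 genes with a window and none of the 3 motifs had a median of -0.38 at day 21, with 3 higher and 17 lower. Of all genes 2.73% were called higher at day 0, and 23.6% and 32.9% were called lower at day 7 and day 21. Library size alone moved the median of all genes by 0.34 at day 21, about the size of the ERSE and no-motif medians. Fold changes by motif were not summarized under that scaling. The motif classes overlap with the roles, so these values were not set against each other in a test.

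Only 26 of the 37 calls at day 21 and 29 of the 32 at day 7 were kept under every setting tried, against 1 of 11 at day 0. In a fit of the 4 day 0 libraries alone edgeR called Rcn3 and no other member (Serpinh1 adjusted p = 0.217, Fkbp10 0.176, Crtap 0.202). That fit called 23 of 15575 genes, against 1280 of 18731 in the main fit, so calls were few among all genes. Calls over all genes also varied with the library left out. Without roxadustat replicate 2 the day 0 count fell to 4 (Serpinh1, Fkbp10, Crtap and Rcn3) and without control replicate 2 to 7. These 4 genes kept their day 0 call in every fit of the whole set of groups that left out 1 library.

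Several of the same genes differed by far larger folds between day 0 and day 7 than between roxadustat and control. From day 0 to day 7 in control cells 28 members rose and 10 fell (37.0% and 39.5% of all genes), 17 of them by at least 2-fold upward, against 22.4% of all genes. All 9 collagen folding genes and all 7 genes of translocon, export and retrieval rose, with medians of 3.18 and 1.90 on the log2 scale. Fkbp10 rose 207-fold, from 1.38 and 1.49 CPM to 292 to 305 CPM, Kdelr3 124-fold and Rcn3 67.2-fold. The 3 largest falls were those of Herpud1, 6.47-fold (478 and 683 CPM at day 0, 87.8 to 91.9 CPM at day 7), Derl3, 4.42-fold, and Dnajb9, 3.83-fold. Hspa5 was not called in this comparison (log2 fold change 0.04 ± 0.11, edgeR adjusted p = 0.745). Immediate early and dissociation genes (7 markers) fell from 6370 to 6897 CPM to 208 to 233 CPM over the same step, and all 6 proximal tubule markers fell. Their part in the change of the members was not tested. By library size alone, which moved the median of all genes by 0.42, 38 members rose and 4 fell (48.4% and 30.1% of all genes).

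From day 0 to day 7 roxadustat cells gained in 23 members and lost in 10 (37.1% and 37.6% of all genes). By library size alone, with the median of all genes moved by 0.43, 36 rose and 8 fell (50.6% and 27.8% of all genes). The largest rises were those of Kdelr3 (50.9-fold), Fkbp10 (33.4-fold) and P3h3 (10.1-fold) and the largest falls those of Herpud1 (6.74-fold), Derl3 (6.19-fold) and Dnajb9 (2.97-fold). Hspa5 fell 1.71-fold here, from 1325 and 1825 CPM to 830 to 977 CPM (edgeR adjusted p = 4.18e-07).

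Between day 7 and day 21 the members split differently in the arms under TMM, but by library size alone more fell than rose in control cells as well. In control cells 19 members rose and 17 fell (34.5% and 34.3% of all genes), with 6 of 9 collagen folding genes among the rises and 7 of 8 lumenal chaperones among the falls. By library size alone 11 rose and 24 fell (27.0% and 43.6% of all genes, whose median moved by -0.19), and 4 collagen folding genes rose and 3 fell. The largest rises were those of Creb3l1 (3.73-fold), Derl3 (3.11-fold, from 3 to 8 counts a library to 11 to 21) and Syvn1 (2.59-fold, from 9.90 to 12.4 CPM to 22.6 to 35.7 CPM). The largest falls were those of Pdia6 (1.76-fold), Manf (1.55-fold) and Hspa5. In roxadustat cells 7 members rose and 33 fell (28.6% and 32.9% of all genes), with 8 of 9 collagen folding genes, 7 of 8 chaperones and all 7 genes of translocon, export and retrieval lower. Library size alone moved the median of all genes by 0.075 in this arm. Creb3l2 (3.00-fold), Creb3l1 (2.42-fold) and Syvn1 (2.03-fold) rose most, and Sec61b (1.95-fold), Rcn3 (1.81-fold) and Serpinh1 (1.79-fold) fell most. Creb3l1 and Syvn1 thus rose in both arms.

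Whether the roxadustat difference itself differed between days was tested as an interaction. Day 0 compares fresh cells of injected mice and day 7 compares cultures. Time, exposure and cell material thus cannot be told apart in that step. Between day 0 and day 7 the difference moved down in 25 members and up in 4 (13.4% and 15.5% of all genes). It moved most in Rcn3, by -2.82 ± 0.18 on the log2 scale (edgeR adjusted p = 1.85e-12), and in Fkbp10, by -2.63 ± 0.23. Between day 7 and day 21 it moved down in 24 and up in 3 members (23.8% and 20.9% of all genes), with all 9 collagen folding genes down. P3h3 moved by -1.40 ± 0.07 (adjusted p = 4.21e-15). The 3 upward moves were those of Hyou1 (0.43), Eif2ak3 (0.45) and Herpud1 (0.72). By library size alone, which moved the median of all genes by 0.28, this step had 14 members down and 10 up (13.4% and 34.7% of all genes). The comparisons share libraries of day 7 or day 0, so their counts are not independent of each other.

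Levels per transcript length were compared as transcripts-per-million values (TPM), which are not scaled by TMM. They serve to order genes within a group. Between groups they can differ from the CPM results, as for P4hb at day 21. In control cells at day 0 P4hb (590 ± 9.62 TPM, SD, n = 2), Calr (568 ± 91.4) and Hspa5 (503 ± 74.9) led, and Serpinh1 was at 104 TPM. At day 7 Serpinh1 led in control cells, at 2749 ± 81.8 TPM (SD, n = 4), with P4hb next at 1356 ± 38.2. In roxadustat cells P4hb led at day 7 (1759 ± 89.4 TPM, n = 4) and Serpinh1 followed at 1659 ± 115. Within each of the 4 libraries P4hb was slightly above Serpinh1, at 1.03, 1.05, 1.06 and 1.11 times its level. At day 21 Serpinh1 was at 2593 ± 359 TPM in control and 1040 ± 141 TPM in roxadustat cells, and P4hb at 1293 ± 161 and 1226 ± 133 TPM.

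The collagen chains are the cargo of this machinery. Of 11 chain genes 7 rose at day 0, 8 fell and 1 rose at day 7, and all 11 fell at day 21, with a median log2 fold change of -3.44. Col12a1 was the 1 that rose at day 7 (1.87-fold), and at day 21 it was 6.58-fold lower. The sum of the 11 chains was divided by Serpinh1 within each library, both in TPM, a ratio chosen after the values were seen. It was 8.02 to 10.5 in control and 2.74 to 3.95 in roxadustat cells at day 21, with means of 9.21 ± 1.26 and 3.44 ± 0.51 (SD, n = 4; exact two-sided permutation test, p = 0.0286, the smallest that 4 against 4 libraries allow). At day 7 it was 2.36 ± 0.04 in control and 2.86 ± 0.25 in roxadustat cells (exact p = 0.0286), and at day 0 2.12 and 2.64 in control and 3.26 and 3.52 in roxadustat libraries. Chains per chaperone were thus lower with roxadustat at day 21 and higher at day 7.

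P4ha1, P4ha2 and P4ha3 encode the catalytic alpha subunits that join P4hb in prolyl 4-hydroxylase. P4ha1 was at 363 CPM in control and 1701 CPM in roxadustat cells at day 7 on average and at 344 and 1234 CPM at day 21, 4.69-fold and 3.59-fold higher. P4ha2 rose 5.53-fold and 2.44-fold, and P4ha3 fell 2.49-fold and 8.58-fold. The summed alpha subunits per P4hb, in TPM within each library, were 0.219 ± 0.003 in control and 0.849 ± 0.018 in roxadustat cells at day 7 (SD, n = 4; exact permutation p = 0.0286). At day 21 they were 0.241 ± 0.010 and 0.956 ± 0.025 (exact permutation p = 0.0286), and at day 0 0.0868 and 0.0892 in control and 0.175 and 0.179 in roxadustat libraries. Alpha subunit transcripts thus stood higher against those of their partner in every roxadustat library than in any control library of the same day. Benjamini-Hochberg adjustment over these 4 tests left each p at 0.0286, as it must where all are equal. This ratio too was chosen after the values were seen, so the p-values add nothing to the separation of the libraries.

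Other genes of the pathway were counted by list. Of 18 tested further folding enzymes 3 rose at day 0, 5 rose and 9 fell at day 7, and 5 rose and 10 fell at day 21. Ero1a, the oxidase that recharges disulfide isomerases, was 1.18-fold, 4.78-fold and 3.28-fold higher at the 3 times, while Pdia5 was 5.08-fold lower at day 21. Of 14 tested translocon and signal peptidase genes 1 rose and 10 fell at day 21, and the 1 that rose, Spcs3, went from 105 to 369 CPM, 3.52-fold. Of 18 genes of transport to the Golgi 7 rose and 10 fell at day 21, with the coat gene Sec31a 2.04-fold and Sar1a 1.98-fold lower. Of 14 further genes of ER-associated degradation 1 rose and 8 fell at day 21.

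Genes listed as the PERK and ATF4 arm were mostly higher in roxadustat than in control cells in culture, and PERK activity was not measured. Of 8 genes 2 fell at day 0, 5 rose and 1 fell at day 7, and 7 rose and 1 fell at day 21, with a median log2 fold change of 0.60. Atf3, a stress-induced factor, was at 3.27 CPM in control and 27.0 CPM in roxadustat cells at day 21 on average, 8.38-fold higher (edgeR adjusted p = 1.64e-18). Chac1, a glutathione-degrading enzyme, was 4.08-fold higher. Ddit3, which encodes CHOP, was the exception, 1.85-fold lower at day 21. At day 0 Atf3 was at 1707 and 1158 CPM on average in control and roxadustat cells, and the immediate early and dissociation markers were high beside it (5865 to 6897 CPM).

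**Figure D4:**
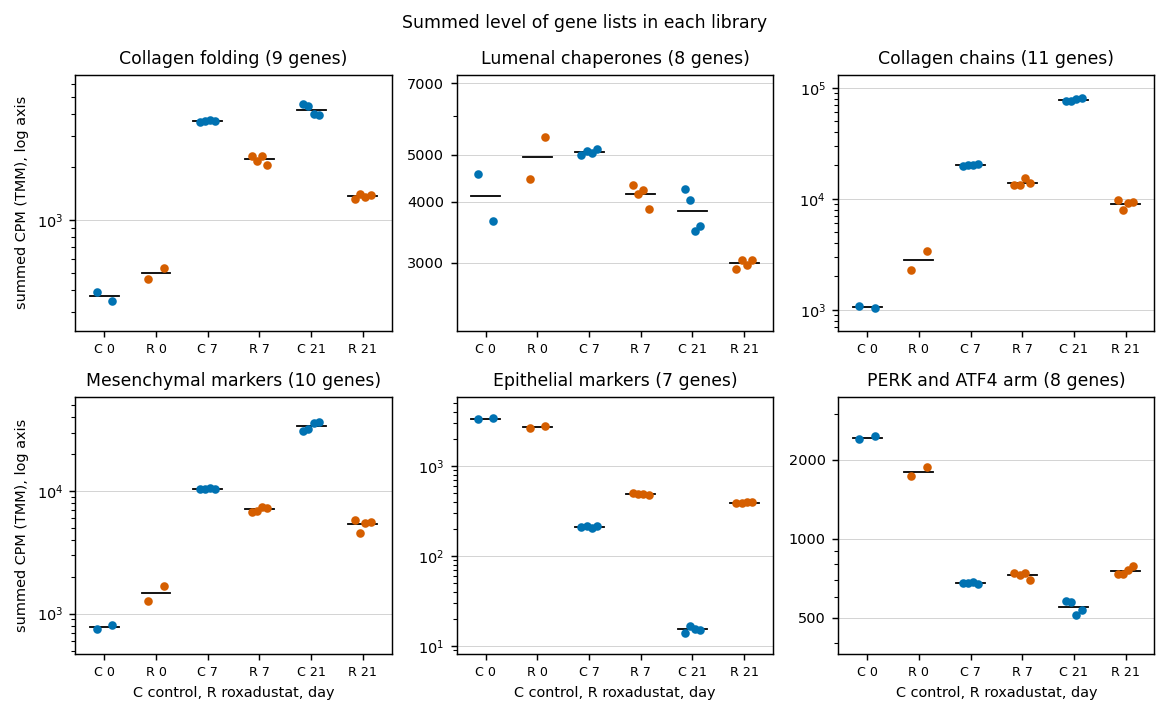
Summed CPM of 6 gene lists in each library on log axes, with bars at the group means. Each point is 1 library of control (C, blue) or roxadustat (R, orange) cells at day 0, 7 or 21. Collagen folding genes, collagen chains and mesenchymal markers lie lower in roxadustat than in control libraries at day 7 and day 21, and epithelial markers higher.

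Cell markers also differed between roxadustat and control libraries. At day 21 the 9 collagen folding genes summed to 3988 to 4568 CPM in control and 1312 to 1405 CPM in roxadustat libraries, and 9 of 10 mesenchymal markers were lower, while Ly6a, which encodes Sca-1, was higher. All 7 epithelial markers were higher at day 7 and day 21. At day 0, where 5 collagen folding genes and 7 collagen chains rose, 5 of 10 mesenchymal markers were higher and 1 lower in roxadustat libraries. At that time 5 of 7 epithelial markers (2629 to 2765 CPM against 3300 to 3393 CPM in control) and all 6 endothelial markers (116 to 119 CPM against 187 to 212 CPM) were lower. All 6 macrophage markers were higher at day 0 and lower at day 7 and day 21 in roxadustat libraries. Every marker of these 4 lists had counts in at least 1 library of each group. The mesenchymal list shares Col1a1 and Col1a2 with the collagen chains, and these genes held most of its sum in control libraries at day 21. In control cells the mesenchymal sum went from 10340 to 10510 CPM at day 7 to 31150 to 36940 CPM at day 21. The collagen folding sum went from 3621 to 3721 CPM to 3988 to 4568 CPM over that step. The part of cell composition in the differences of the ER genes was not tested. The 8 lumenal chaperones summed to 4990 to 5132 CPM in control and 3868 to 4339 CPM in roxadustat cells at day 7. At day 21 the sums were 3484 to 4251 CPM against 2917 to 3046 CPM. These sums were scaled by TMM, and fewer of these genes were called lower at day 21 by library size alone.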

How the data were processed

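Total RNA of kidney Sca-1+ cells was extracted with Trizol and sequenced as 20 non-stranded TruSeq mRNA libraries, per the labels' protocols. The authors deposited raw read counts per Ensembl gene, made with bcl2fastq, STAR 2.5.2a and featureCounts 1.5.0-p1 on mm10, per the submitters' processing notes; the annotation release is not given in the sources used here. Of 47729 genes 47310 matched GENCODE M21, which gave symbols, positions and union exon lengths for TPM.

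Counts were tested with edgeR 4.0.16 (R 4.3.3; filterByExpr, TMM, robust quasi-likelihood F test, 1 mean per group over all 20 libraries), with Benjamini-Hochberg adjustment over the 18731 genes that passed the filter. Standard errors were derived from each log2 fold change and its F statistic. The scripts were tested on simulated counts. Settings tried were DESeq2 1.42.0 as a test and for size factors, library size alone, no filter on low counts, only the groups compared, a replicate block and each library left out. Because the 4 control libraries of day 21 lie in 2 close pairs, each pair was also left out, a choice made after seeing the data. No 2 libraries agreed within sampling noise.

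Values are given in every library for, in each role, the called gene with the smallest p and the one with the largest fold change at day 7 and day 21, for the 5 with the smallest p at day 0 and for genes called in opposite directions. For steps in time the 3 largest rises and falls are named, for interactions genes with the smallest p, and for other lists at most 3 genes with the smallest p at day 21. Other values were added after they were seen. The members and lists were chosen with earlier results of these data known.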

Additional observations from a re-analysis of the deposited data

Results flagged for a closer look

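In groups of 4 libraries 1 library stood far from the others in 7 of 184 cases, and chance gives about 1 in 20. In control cells at day 7, Hsp90b1 was at 876.4 CPM in replicate 4 (others 863.9 to 864.6) and Eif2ak3 at 87.2 CPM in replicate 3 (others 92.22 to 92.28). Replicate 1 of that group held 60.43 CPM of Derl2 (others 69.09 to 70.36) and 78.88 CPM of Ppib (others 105.5 to 109.4). In control cells at day 21, Sdf2l1 was at 15.24 CPM in replicate 4 (others 19.41 to 19.72) and Atf6 at 121.6 CPM in replicate 3 (others 115.6 to 116.3). In roxadustat cells at day 21, P4hb was at 958.3 CPM in replicate 1 (others 1006 to 1011).

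The roxadustat difference itself differed between days in several collagen folding genes, by the interaction test of edgeR. From day 0 to day 7 the log2 fold change moved by -2.82 in Rcn3, -2.632 in Fkbp10, -1.535 in Serpinh1, -0.971 in Fkbp14 and -0.784 in Crtap. From day 7 to day 21 it moved by -1.759 in Rcn3, -1.399 in P3h3, -1.341 in Fkbp9, -0.971 in Fkbp10 and -0.97 in Crtap. The day 0 side of the first set rests on 2 libraries a group, of fresh cells of injected or control mice rather than cultures. Time and exposure cannot be told apart there.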

How the results depend on the processing

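Over all genes the main fit called 1280 of 18731 at day 0, and a fit of only the groups compared called 23 of 15575. Calls over all genes also varied with the library left out. Among the members, the day 0 count of 11 called genes was the least stable. It was 1 in a fit of only the groups compared, and it ranged from 4 (without roxadustat replicate 2) to 15 (without control replicate 1) when 1 library was left out, with 7 without control replicate 2. With 1 library left out the counts were 35 to 38 at day 21 against 37. By library size alone 5 calls of day 21 changed sign, to 0.194 for Derl2, 0.11 for Dnajc10, 0.09 for Edem1, 0.002 for Pdia6 and 0.007 for Xbp1 on the log2 scale. This scaling moved the median of all genes by 0.338, so falls smaller than about that turn positive by construction, and of the 5 only Derl2 was called. The replicate block gave 8 called genes at day 0, 32 at day 7 and 37 at day 21. Same-numbered libraries of a day had correlated deviations of -0.275 to 0.0701, so the numbers were not taken as pairs. DESeq2 called 12, 33 and 36. With either close pair of control libraries of day 21 left out, 35 or 39 were called at day 21. Low counts limit Derl3 (3 to 38 a library) and, at day 0, Creb3l1 (8 to 25).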
